A study of Mus musculus with 12 samples.

Results

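In a part of the mouse genome, 10 kb bins hold a larger share of the FGFR1 HiChIP ends than of the Hi-C ends of the same cells, and these bins are described here. Bins were chosen by a rule on the read-pair ends. Each autosome was cut into 10 kb bins, each interaction anchor (a stretch of DNA to which hichipper assigns read pairs) was placed at its midpoint, and the ends of all read pairs that do not lie inside a single anchor were summed. A bin is a member when it holds 30 or more FGFR1 HiChIP ends and when its share of all FGFR1 ends is at least 2 times its share of all Hi-C ends of the same cell type. Of 246285 autosomal bins, 44400 were members in ESC or NCC, 18926 in ESC, 30316 in NCC and 4842 in both. The ESC are E14Tg2A mouse embryonic stem cells grown with LIF (leukemia inhibitory factor, 100 U/mL). The NCC are the same line after 48 h with 1 μM retinoic acid in medium without LIF, which starts neural differentiation. Hi-C, FGFR1 HiChIP and CTCF HiChIP were done in both with 2 biological replicates each, which the authors merged. Each cell type and assay is therefore 1 pooled library from 1 cell line, so no error between replicates can be given, no difference between ESC and NCC is tested below, and the 95% intervals reflect the counting of ends alone. On the autosomes, 32709333 ends remained for Hi-C of ESC and 33944651 for that of NCC. The FGFR1 libraries were shallower, with 4236963 (ESC) and 5258077 (NCC) ends, and the CTCF libraries shallower still, with 1737723 (ESC) and 1673723 (NCC). Levels are given as EPM, ends per 1000000 autosomal ends of the library, on which scale 30 FGFR1 ends are 7.08 EPM in ESC and 5.71 EPM in NCC.

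FGFR1 is a receptor tyrosine kinase for fibroblast growth factors. It also occurs in the nucleus (nFGFR1), where it associates with chromatin and with nuclear receptors and other transcription regulators during neuronal differentiation. CTCF is a zinc finger protein that holds chromatin loops and domain borders together with cohesin. Hi-C joins DNA ends that lie close to each other in the nucleus, and HiChIP adds an immunoprecipitation, so that a HiChIP library is read against Hi-C to see where the antibody enriched contacts. Hi-C coverage itself is uneven over the genome, and a ratio over Hi-C carries that unevenness.

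The sequences shown first are those of 7 members, read from the mm10 genome (GRCm38.p6 in RefSeq, to which the anchor edges of all 6 libraries fit at GATC sites). The first 4 are promoters as RefSeq gives them, 250 bases before to 50 after the start site, of genes named below for retinoid metabolism, retinoid reception and pluripotency. Capitals mark the GC box (GGGCGG or its reverse complement, where boxes may overlap).

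Aldh1a1 promoter, chr19:20601718-20602017, plus strand: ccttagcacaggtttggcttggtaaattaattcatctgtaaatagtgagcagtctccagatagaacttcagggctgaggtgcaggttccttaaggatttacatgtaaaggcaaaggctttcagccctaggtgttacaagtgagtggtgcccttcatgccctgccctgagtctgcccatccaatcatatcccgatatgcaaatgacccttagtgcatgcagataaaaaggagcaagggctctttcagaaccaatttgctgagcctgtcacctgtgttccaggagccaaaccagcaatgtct
Zfp42 promoter, chr8:43306960-43307259, minus strand: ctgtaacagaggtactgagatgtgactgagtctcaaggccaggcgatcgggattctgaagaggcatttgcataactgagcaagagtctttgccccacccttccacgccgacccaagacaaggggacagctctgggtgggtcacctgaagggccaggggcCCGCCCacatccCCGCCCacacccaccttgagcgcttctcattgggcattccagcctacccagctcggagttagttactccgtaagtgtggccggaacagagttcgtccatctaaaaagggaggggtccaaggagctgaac
Rarg promoter, chr15:102246451-102246750, minus strand: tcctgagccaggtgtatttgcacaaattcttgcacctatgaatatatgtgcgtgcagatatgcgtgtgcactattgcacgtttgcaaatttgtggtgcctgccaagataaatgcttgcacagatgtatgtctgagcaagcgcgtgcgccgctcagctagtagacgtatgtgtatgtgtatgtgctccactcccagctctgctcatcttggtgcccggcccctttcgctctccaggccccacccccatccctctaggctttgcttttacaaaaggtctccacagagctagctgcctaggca
Utf1 promoter, chr7:139943606-139943905, plus strand: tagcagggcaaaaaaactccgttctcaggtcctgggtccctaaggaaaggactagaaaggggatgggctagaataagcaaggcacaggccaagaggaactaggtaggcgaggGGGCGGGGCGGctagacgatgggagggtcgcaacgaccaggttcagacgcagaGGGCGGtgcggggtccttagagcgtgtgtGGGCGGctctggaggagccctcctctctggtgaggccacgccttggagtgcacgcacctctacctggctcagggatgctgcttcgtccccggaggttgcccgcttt

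The other 3 are the central 300 bases of the FGFR1 anchor with the most ESC ends in members of both cell types that kept a high ratio under either placement of anchors (below). The first pair lies within genes and the last outside, named by the nearest gene, and capitals mark GATC, the site at which anchors begin and end.

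Gm11909 anchor centre, chr4:28551255-28551554, plus strand: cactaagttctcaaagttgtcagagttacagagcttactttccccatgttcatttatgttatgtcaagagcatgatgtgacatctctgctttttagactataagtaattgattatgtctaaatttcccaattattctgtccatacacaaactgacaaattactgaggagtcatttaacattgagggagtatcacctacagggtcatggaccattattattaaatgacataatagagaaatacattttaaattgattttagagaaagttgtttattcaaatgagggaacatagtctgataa
Hmgcll1 anchor centre, chr9:76089231-76089530, plus strand: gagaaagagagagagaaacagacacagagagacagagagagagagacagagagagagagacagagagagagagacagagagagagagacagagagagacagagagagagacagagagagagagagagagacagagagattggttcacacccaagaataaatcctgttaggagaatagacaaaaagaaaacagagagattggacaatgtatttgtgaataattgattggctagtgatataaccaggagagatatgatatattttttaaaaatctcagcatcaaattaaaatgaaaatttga
Sorcs3 anchor centre, chr19:49432856-49433155, plus strand: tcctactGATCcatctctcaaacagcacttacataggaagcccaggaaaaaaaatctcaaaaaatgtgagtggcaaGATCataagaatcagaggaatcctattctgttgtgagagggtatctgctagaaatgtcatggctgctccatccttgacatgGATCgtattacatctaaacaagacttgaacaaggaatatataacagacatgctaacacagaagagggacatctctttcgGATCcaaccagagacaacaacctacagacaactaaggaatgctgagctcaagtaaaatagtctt

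The anchor centres had a GC content of 32.0% (Gm11909), 38.0% (Hmgcll1) and 40.0% (Sorcs3). The promoters had 47.0% (Aldh1a1), 57.7% (Zfp42), 51.7% (Rarg) and 62.0% (Utf1).

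The members' own values, which the rule used and which are therefore description, were mostly close to the limits of the rule. In ESC, 36.0% of the 52620 bins with 30 or more FGFR1 ends were members, and in NCC 41.6% of 72859 bins. The median was 42 FGFR1 ends in ESC members and 43 in NCC members, and 82.7% and 82.4% held under 60 ends. Bins with 30 or more FGFR1 ends that were not members had nearly the same number of FGFR1 ends, with medians of 43 and 44. They differed from members in Hi-C, with medians of 318 Hi-C ends in ESC and 291 in NCC, against 92 and 58 in members. Over all bins with at least 50% known bases, the median was 85 and 88 Hi-C ends. Members thus held fewer Hi-C ends than the other bins with 30 or more FGFR1 ends, while against all bins the median was lower in NCC and not in ESC. Where a member held any Hi-C end, the median ratio of the shares was 3.01 in ESC (quartiles 2.39 and 4.40) and 3.41 in NCC (2.51 and 5.46). No Hi-C end was found in 3699 ESC members (19.5%) and in 8296 NCC members (27.4%), for which the ratio has no upper value. Over all bins with at least 50% known bases, 25.8% in ESC and 26.6% in NCC had no Hi-C end. The exact interval of the ratio lay at 2 or above in 63.0% of the ESC members and 72.5% of the NCC members.

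**Figure D1:**
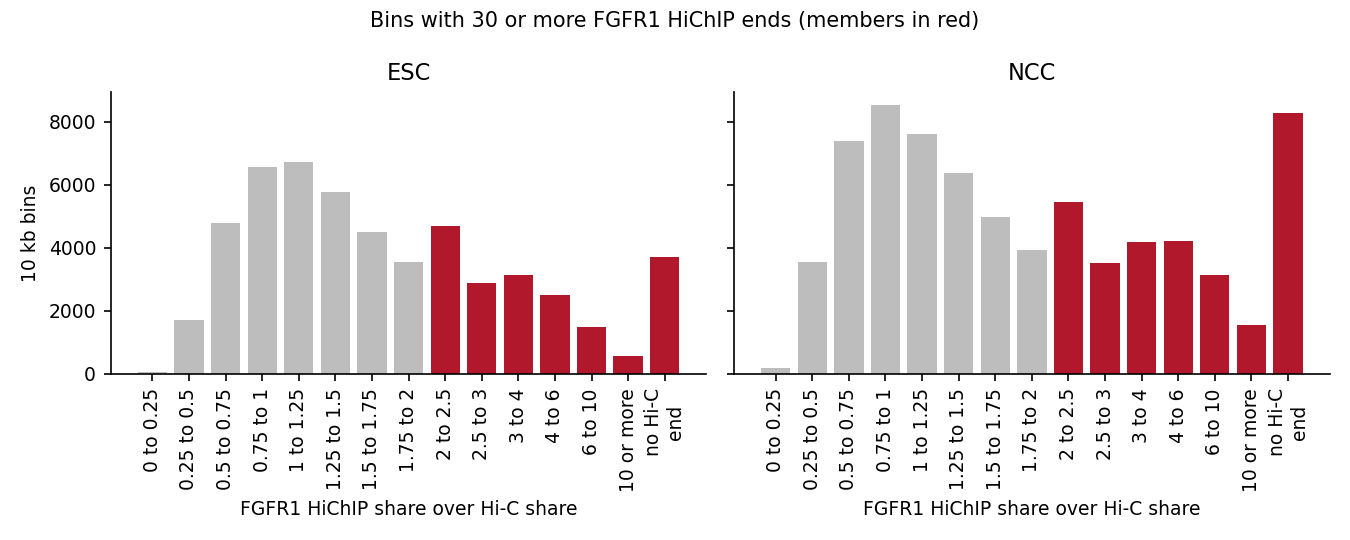
Number of 10 kb bins with 30 or more FGFR1 HiChIP ends (y axis) by the ratio of the FGFR1 share to the Hi-C share (x axis), in ESC and NCC, with members in red. The bins without a Hi-C end (3699 in ESC, 8296 in NCC) stand at the right, the classes are wider from the fold of 2 on, and the bins run on across it without a gap.

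Bins next to the fold of 2 showed no break there. The ESC bins just inside it lay at Naip6, Parn and Plce1, and those just outside at Glrx2, Sorbs2 and Ddx47. The ratio of all 6 rounds to 2. In the bin at Glrx2 (a glutaredoxin), 50 FGFR1 ends stood against 193 Hi-C ends, with an interval of the ratio from 1.44 to 2.74. The NCC bins just inside lay at Lrba, Ankrd17 and Sorl1 and those just outside at Hsd17b12, Pla2g2f and Tgfbr3, all rounding to 2 again, such as the bin in Lrba with 44 FGFR1 and 142 Hi-C ends (1.39 to 2.82).

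Members were poorer in GC and in genes than the other bins with 30 or more FGFR1 ends. The median GC content was 41.4% in ESC members and 39.9% in NCC members, against 45.9% and 45.2% in bins with 30 or more FGFR1 ends that were not members and 41.4% over all bins. A transcription start site of a protein-coding gene lay in 8.58% of all members (Wilson interval 8.33 to 8.85%), in 10.5% of the ESC members and in 7.53% of the NCC members. The share was 10.6% over all bins, and 25.7% and 22.9% in the bins with 30 or more FGFR1 ends that were not members. CpG islands were called in 3399 of the 18926 ESC members (17.4 to 18.5%), 11.8% of the NCC members and 17.7% of all bins (14.1% of all members). Islands of 500 bp or longer lay in 6.62%, 4.13% and 6.48% (4.99% of all members). The median distance to the nearest protein-coding start site was 46.0 kb in ESC members and 80.8 kb in NCC members, against 17.2 and 20.5 kb in the bins that were not members and 56.3 kb over all bins. Repeats covered a median of 27.0% of the known bases in members and 28.6% in all bins, and the median of GATC sites was 23 and 24.

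The share of members followed GC content closely. Among bins with 30 or more FGFR1 ends, 91.7% were members in ESC where GC content was under 36%, 54.5% between 40 and 42%, and 10.1% at 50% or more. In NCC, 88.4% were members between 36 and 38%, 55.1% between 40 and 42% and 8.23% at 50% or more. The levels over all bins moved likewise. From the poorest to the richest class, the mean Hi-C level in ESC (EPM) went from 0.696 to 14.2, while FGFR1 HiChIP went from 2.21 to 8.89 and CTCF HiChIP from 1.81 to 9.96. The ratio of the class means over Hi-C thus went from 3.18 to 0.625 for FGFR1 and from 2.60 to 0.699 for CTCF in ESC, and from 5.18 to 0.495 for FGFR1 in NCC. Both antibodies showed the same order against Hi-C. The part of GC content in the choice of single members was not tested.

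Within a class of GC content, members held start sites about as often as all bins. Between 42 and 44% GC, 10.4% of the ESC members and 10.1% of the NCC members held one, against 10.2% of all bins and 17.7% and 16.1% of the bins with 30 or more FGFR1 ends that were not members. At 50% GC or more, the shares were 39.4% and 36.9% in members, 39.2% in all bins, and 45.6% and 45.3% in the bins that were not members. In ESC members under 42% GC the share was above that of all bins, for example 6.76% against 4.52% between 38 and 40%. Bins with a start site had lower FGFR1 than Hi-C shares as a group: their mean in ESC was 6.80 EPM in FGFR1 HiChIP, 8.18 in Hi-C and 7.51 in CTCF HiChIP, and in NCC 5.98, 7.95 and 7.22.

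**Figure D2:**
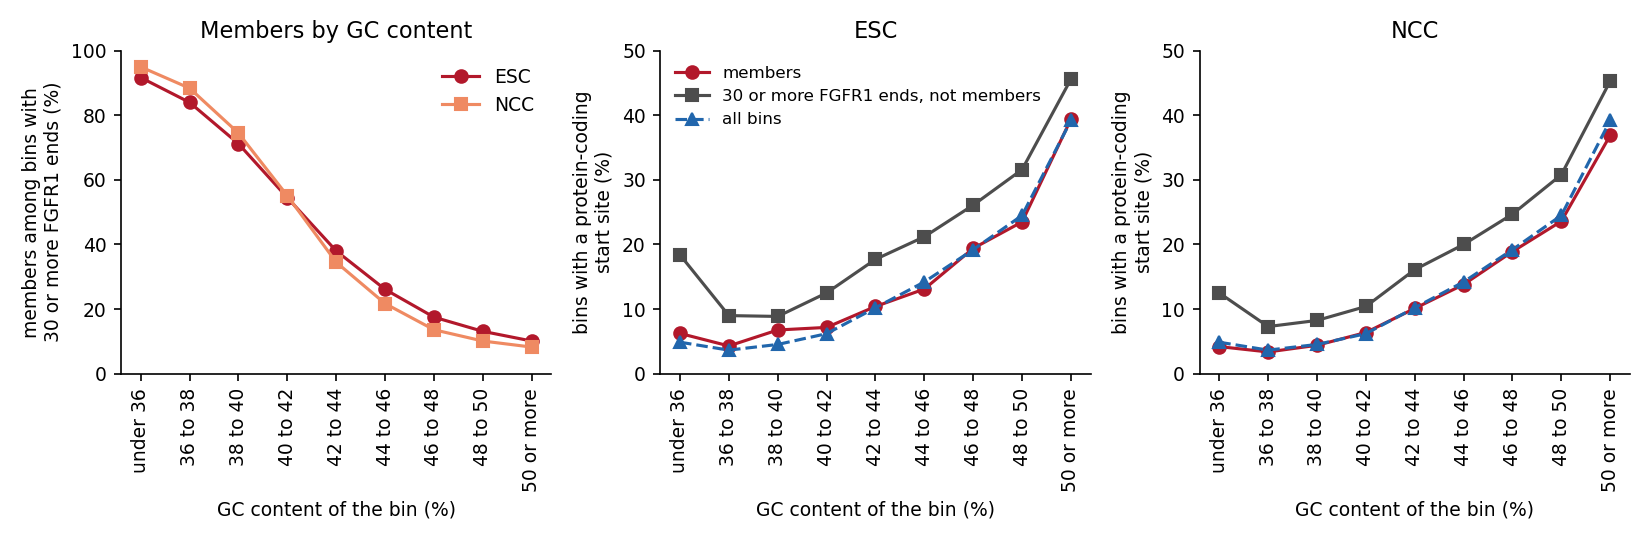
Left, percent of bins with 30 or more FGFR1 ends that are members (y axis) by GC content of the bin (x axis) in ESC and NCC. Middle and right, percent of bins with a protein-coding start site in members, in other bins with 30 or more FGFR1 ends and in all bins. The members' share falls with GC content, in ESC from 91.7% to 10.1%, and the members' start sites lie close to the line of all bins.

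The number of ends behind a member mattered for this picture. Of the 336 ESC members with 100 or more FGFR1 ends, 31.0% held a protein-coding start site (26.2 to 36.1%), and of the 415 such NCC members 21.4% (17.8 to 25.6%). With 60 or more FGFR1 ends in place of 30, 15.9% of all members held one. When only interactions with a score of 2 or more were used in all libraries, 4624 members were left and 24.7% held one. The order against all bins (10.4% of all autosomal bins) thus turned. Bins with 30 or more FGFR1 ends that were not members stood at 25.7% in ESC and 22.9% in NCC. Their share at 60 or 100 ends or at a score of 2 was not computed. Whether such members differ from other bins with as many ends was thus not tested.

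Because anchors were called in each library separately, the place of an anchor decided a part of the members. Of the 3699 ESC members without a Hi-C end, 2372 were overlapped by a Hi-C anchor whose midpoint lay in a neighbouring bin, and in NCC 3481 of 8296. When the ends of each anchor were divided over all bins it overlaps, 70.9% of the ESC members and 78.8% of the NCC members still had an FGFR1 share of at least 2 times the Hi-C share. With the minimum of 30 FGFR1 ends applied to the divided ends as well, 59.8% and 68.7% remained members. Without that minimum, the share was 91.1% and 94.0% in members with under 40% GC, and 24.0% and 18.5% in those with 46% or more. It was 54.7% and 57.4% in members with a protein-coding start site, and 72.8% and 80.6% in members without one. Summed with both neighbouring bins, 41.9% of the ESC members and 58.7% of the NCC members kept the fold of 2. No other member lay beside 79.6% of the ESC members and 67.6% of the NCC members. Members were 18926 (ESC) and 30316 (NCC) of the 246285 autosomal bins, and the share of lone members expected at this density was not computed. The longest run was 70 kb in ESC (chr13:12820001-12890000) and 90 kb in NCC (chr19:20380001-20470000).

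**Figure D3:**
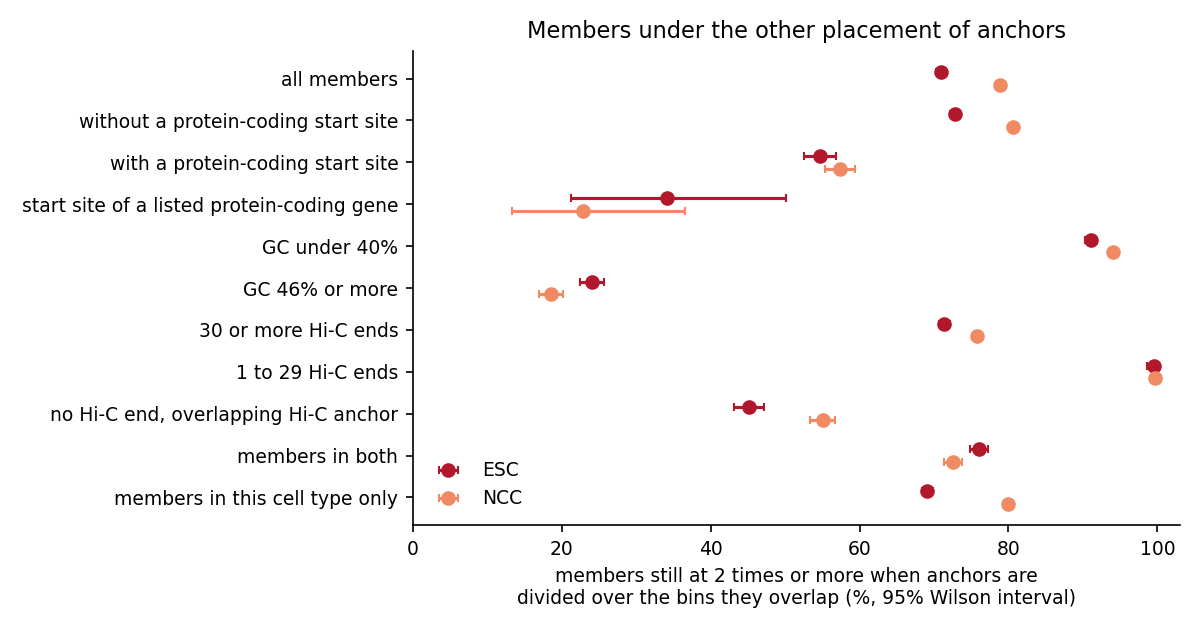
Percent of members (x axis, with 95% Wilson intervals for counting error) that keep an FGFR1 share of at least 2 times the Hi-C share when the ends of each anchor are divided over the bins it overlaps, for groups of members (y axis) in ESC and NCC. Members with under 40% GC stand at 91.1% and 94.0%, and members at start sites of the listed genes at 34.2% and 22.9%.

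The 10 members with the highest lower bound of the ratio in each cell type were all bins without a Hi-C end in that cell type. The ESC bin in Txn2 (mitochondrial thioredoxin, chr15:77910001-77920000) held 170 FGFR1 ends, 0 Hi-C ends and 57 CTCF ends in ESC, and 109, 1847 and 19 in NCC. Its FGFR1 share was at least 437-fold higher than that of Hi-C when the floor of 3 Hi-C ends is taken, while the exact lower bound, which also counts the error of the FGFR1 ends, was 352. However, the Hi-C anchors that overlap it brought 584 ends, and the ratio was then 1.68. The bin in Smc5 (a subunit of a complex related to cohesin, chr19:23220001-23230000) held 129 FGFR1, 0 Hi-C and 55 CTCF ends in ESC and 88, 383 and 5 in NCC, and its ratio by overlap was 2.94. Mettl5, an RNA methyltransferase gene with its start site in the bin, had 134, 0 and 19 ends in ESC and 44, 607 and 31 in NCC, and 3.57 by overlap. In ESC, 5 of the 10 stayed at 2 or more by overlap, with ratios from 1.10 to 3.57.

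The 10 such members of NCC had ratios by overlap from 0.794 to 1.79, so that 0 of them stayed at 2 or more. One of them holds a start site of Rarg, which encodes the retinoic acid receptor gamma (chr15:102240001-102250000). It had 173 FGFR1, 0 Hi-C and 36 CTCF ends in NCC and 110, 1177 and 31 in ESC, at least 372-fold in NCC by the floor, with an exact lower bound of 300, and 1.54 by overlap. Glp1r, a peptide hormone receptor gene, had 167, 0 and 34 ends in NCC and 185, 953 and 69 in ESC, and 0.966 by overlap. The bin in Capzb, which encodes an actin capping subunit, lacked Hi-C ends in both cell types. It had 118 FGFR1 and 74 CTCF ends in ESC and 171 and 59 in NCC, and ratios by overlap of 1.09 and 1.04.

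Among members of both cell types with 30 or more Hi-C ends in each, the 10 with the highest lower bound in both, a selection made after the values were seen, had 38 to 68 FGFR1 ends in ESC and 45 to 118 in NCC. Their ratios were 8.08 to 13.6 in ESC and 8.28 to 15.1 in NCC, and 8 of the 10 stayed at 2 or more by overlap in both cell types. The ratios by overlap were lower in some, as in the bin in Nmnat2 (an enzyme of NAD synthesis), with 8.08 and 9.77 by midpoint and 1.45 and 1.71 by overlap. None (0) held a protein-coding start site, 6 lay within a gene, and their GC content was 36.2 to 46.9%. The bin in Ncam2 (a neural cell adhesion molecule) had 58 FGFR1, 33 Hi-C and 0 CTCF ends in ESC and 45, 33 and 6 in NCC. Its ratio was 13.6 (8.70 to 21.5) in ESC and 8.80 (5.49 to 14.2) in NCC, and 10.0 and 2.58 by overlap. The bin in Hmgcll1 (a ketone body enzyme of the HMG-CoA lyase family) had 44, 41 and 9 ends in ESC and 70, 30 and 25 in NCC, with ratios of 8.28 (5.29 to 13.0) and 15.1 (9.69 to 23.9). A bin outside genes gave similar values. With Sorcs3 as its nearest gene, it had 38 FGFR1 and 30 Hi-C ends in ESC and 58 and 44 in NCC. CTCF HiChIP was uneven among the 10, with 0 to 20 ends in ESC and 0 to 40 in NCC.

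**Figure D4:**
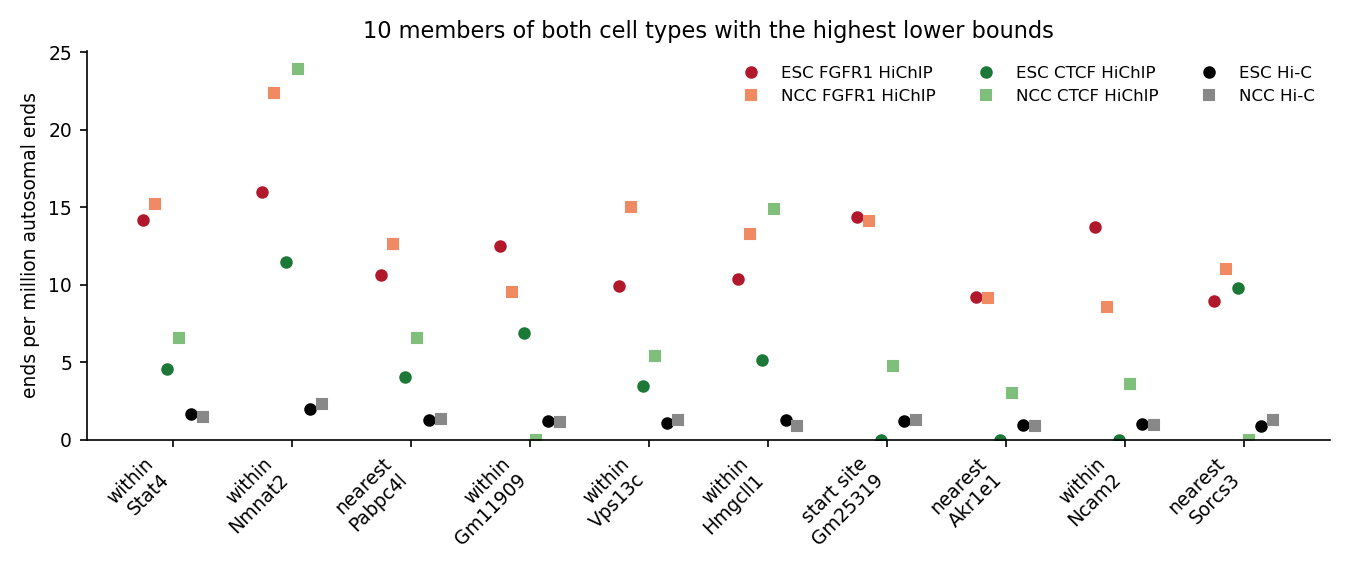
EPM (y axis) in the 6 pooled libraries for the 10 members of both cell types with 30 or more Hi-C ends and the highest lower bounds (x axis, by gene and its relation to the bin). FGFR1 HiChIP lies above Hi-C in each, as the rule requires, and CTCF HiChIP lies above FGFR1 in NCC at Nmnat2 and Hmgcll1 and in ESC at Sorcs3.

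The bins with the most FGFR1 ends, at Sfi1 and near Mpdz, had many ends in all libraries. At Sfi1, which encodes a centrosome protein, the bin chr11:3190001-3200000 had 671 FGFR1, 1872 Hi-C and 381 CTCF ends in ESC and 721, 2034 and 320 in NCC. The FGFR1 ratio was 2.77 (2.53 to 3.02) and 2.29 (2.10 to 2.49), and the CTCF ratio was higher, 3.83 (3.42 to 4.28) and 3.19 (2.83 to 3.59). Repeats covered 48.1% of it. The bin whose nearest gene is Mpdz, a scaffold protein gene, had 428, 1620 and 225 ends in ESC and 452, 1268 and 199 in NCC, and repeats covered 53.1% of it. In these bins CTCF HiChIP was as high over Hi-C as FGFR1 HiChIP or higher. A bin whose nearest gene is Irak1bp1 was unlike them, with 238 FGFR1, 124 Hi-C and 8 CTCF ends in ESC and 25, 142 and 0 in NCC. The next bin had 0, 480 and 112 ends in ESC and 256, 533 and 104 in NCC, so that the FGFR1 ends of the 2 cell types lay in neighbouring bins.

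Members of one cell type were set against the FGFR1 and Hi-C libraries of the other, which the rule for that cell type does not use. Of the ESC members, 48.4% also held 30 or more FGFR1 ends in NCC, and 52.9% of these 9161 bins (51.8 to 53.9%) were NCC members. Of the 21285 bins that held 30 or more ends in both but were no ESC members, 13.6% (13.2 to 14.1%) were NCC members. Taken from NCC, 62.5% of 7743 members (61.4 to 63.6%) were ESC members, against 4319 of 22703 bins (18.5 to 19.5%) that were not. Common members made up 10.9% of the 44400 members (25.6% of the ESC and 16.0% of the NCC members). Of all 246285 autosomal bins, 30316 were NCC members and 18926 were ESC members. Many members held under 30 FGFR1 ends in the other cell type. With 30 or more Hi-C ends in both as well, 45.4% of 6618 ESC members were NCC members and 57.2% of 5256 NCC members were ESC members. No FGFR1 end at all was found in NCC for 2743 ESC members and in ESC for 7022 NCC members. The mean FGFR1 share of ESC members was 1.32 times that of Hi-C in NCC, and that of NCC members was 1.52 times in ESC, against 0.753 and 0.893 in bins with 30 or more ends that were not members. GC content, which also differs between these groups of bins, is the same in both cell types, and its part in the sharing was not tested.

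Among members of one cell type only (14084 in ESC, 25474 in NCC), 41.8% and 41.4% had a ratio of at least 1 in the other. The share of all bins at such a ratio was not computed, so these shares have no background. They are shares of all members of one cell type only. Those without a Hi-C end in the other cell type, which have no ratio, are among these members. Over the bins with a ratio alone, which are another set, the median was 0.897 in NCC and 0.887 in ESC. Members of one cell type only were chosen by the values in both cell types, so these values and what follows are description. The largest contrasts were bins without a Hi-C end in their own cell type and without an FGFR1 end in the other. Prdm12, a zinc finger gene of sensory neuron development, had 97 FGFR1, 0 Hi-C and 0 CTCF ends in ESC and 0, 580 and 0 in NCC. Cebpb, a leucine zipper transcription factor gene, had 63, 0 and 0 in ESC and 0, 1098 and 15 in NCC. Tex261 had 70, 0 and 23 in NCC and 0, 817 and 40 in ESC. By overlap, the ratios of the 5 such bins were 0.825 to 1.04 in ESC and 0.424 to 2.21 in NCC, so 0 of 5 and 1 of 5 stayed at 2 or more. Of the members without a Hi-C end in their own cell type, 63.5% in ESC and 49.6% in NCC held 30 or more Hi-C ends in the other.

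CTCF HiChIP, which the rule did not use, was also higher over Hi-C in members than elsewhere. The CTCF share was 2 times the Hi-C share or more in 44.0% of the ESC members (43.3 to 44.7%) and in 15163 of the 30316 NCC members (49.5 to 50.6%), where 22.8% and 25.2% of all bins reached this. In bins with 30 or more FGFR1 ends that were not members, it was 8.57% and 10.3%. Of members with 30 or more CTCF ends, 953 of 1000 in ESC (95.3%) and 821 of 825 in NCC (99.5%) reached it, against 44.7% and 51.1% of all bins with as many CTCF ends. These shares have Hi-C as the denominator, as the rule does. A member has little Hi-C by the rule (a mean of 2.92 EPM in ESC and 1.96 in NCC), and 30 CTCF ends are 17.3 and 17.9 EPM, so most members with so many CTCF ends had to pass.

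Without Hi-C, the CTCF level of members was moderate. It was 1.45 times the mean of all bins in ESC and 1.21 times in NCC, below the 2.37 and 2.03 times of the bins with 30 or more FGFR1 ends that were not members. In bins with like numbers of Hi-C ends, members had the highest CTCF level. With 120 to 239 Hi-C ends in ESC, the mean was 7.30 EPM of CTCF HiChIP in members, 6.58 in bins with 30 or more FGFR1 ends that were not members, and 4.40 in bins with fewer FGFR1 ends. In NCC these values were 7.09, 6.18 and 4.05. Where the bin held no Hi-C end, members had 5.96 EPM of CTCF HiChIP in ESC and 4.53 in NCC, and the bins with under 30 FGFR1 ends 1.24 and 1.41. However, a Hi-C anchor placed in another bin overlapped 64.1% of these ESC members and 42.0% of these NCC members. That share was not computed for the bins with under 30 FGFR1 ends, so the 2 sets need not be alike in coverage. Across bins with 30 or more Hi-C ends, 30 or more FGFR1 ends and 10 or more CTCF ends, the FGFR1 and CTCF ratios had a Spearman correlation of 0.687 in ESC (30387 bins) and 0.757 in NCC (34079 bins). This is a description, as both ratios have the same denominator. The CTCF consensus motif occurred in 4.92% of the ESC members, 3.64% of the NCC members and 4.83% of all bins, against 9.98% and 8.82% of the bins with 30 or more FGFR1 ends that were not members.

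**Figure D5:**
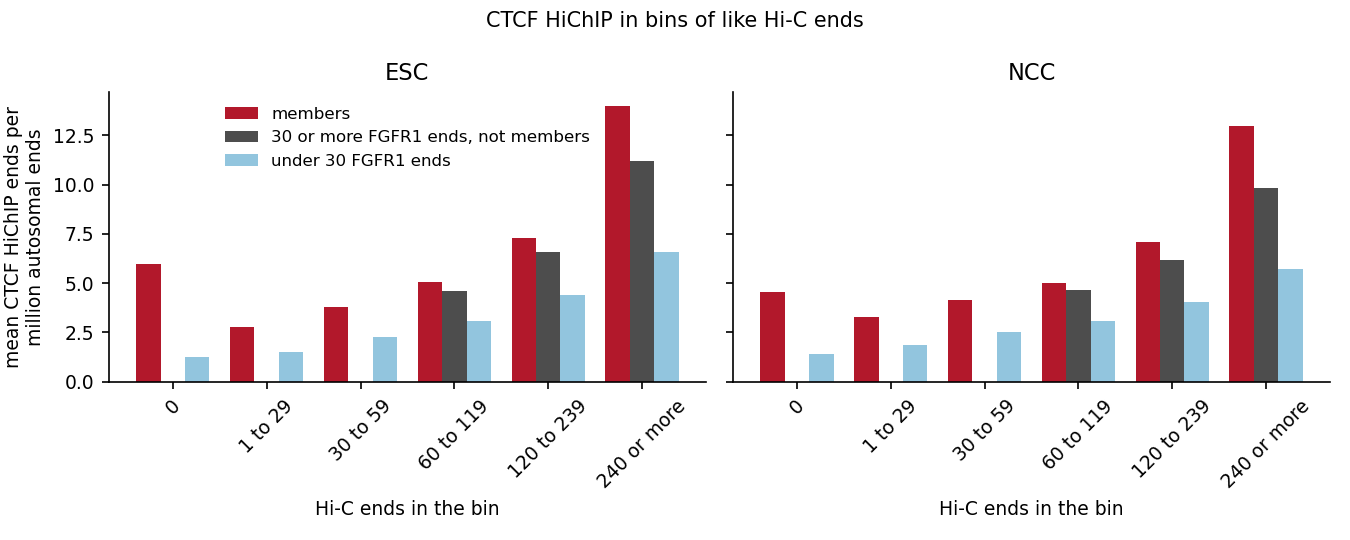
Mean CTCF HiChIP level in EPM (y axis) in bins grouped by their number of Hi-C ends (x axis), for members, other bins with 30 or more FGFR1 ends and bins with fewer, in ESC and NCC. Groups under 20 bins are not drawn. Members stand highest in each group, for example 7.30 against 4.40 in ESC at 120 to 239 Hi-C ends.

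Members with FGFR1 but without CTCF HiChIP ends were also found. Bins without a CTCF end were rarer among members than among all bins. They were more frequent among members than among the other bins with 30 or more FGFR1 ends. No CTCF end was found in 26.1% of the ESC members and 30.5% of the NCC members, against 43.0% and 43.3% of all bins. In bins with 30 or more FGFR1 ends that were not members, this share was 15.3% in ESC. In NCC it was likewise below the share of members. The highest lower bounds of FGFR1 over CTCF were those of 5 bins per cell type, all with 0 CTCF ends and with 128 to 148 FGFR1 ends in ESC and 138 to 172 in NCC. The ESC bin with a start site of Hoxb5, a homeobox gene of the HoxB cluster, had 128 FGFR1, 365 Hi-C and 0 CTCF ends in ESC and 51, 542 and 15 in NCC, and its FGFR1 ratio was 2.71 (2.20 to 3.32) in ESC and 0.607 (0.447 to 0.810) in NCC. The bin in Pitpna (a phosphatidylinositol transfer protein) had 148, 370 and 0 ends in ESC and 48, 272 and 0 in NCC. The bin in Bcar1, which encodes an adaptor of integrin signalling, had 172, 396 and 0 ends in NCC and 69, 239 and 15 in ESC. By overlap, 2 of the 5 stayed at 2 or more over Hi-C in each cell type.

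Read pairs with an end in a member were close to their library in FGFR1 HiChIP and departed from it in Hi-C. The rule chose members for few Hi-C ends against FGFR1 ends, so the Hi-C values and the shares of ends are description. In ESC FGFR1 HiChIP, 13.6% of the read pairs with an end in a member were inter-chromosomal, against 13.7% of all read pairs outside single anchors. In NCC it was 15.1% and 15.3%. In Hi-C, the share was 14.0% for pairs with an end in an ESC member against 12.8% of all pairs, and 16.5% against 14.4% in NCC. Intra-chromosomal pairs of 1 Mb or more made up 22.5% of the FGFR1 pairs at NCC members (20.9% of all). In Hi-C they made up 20.3% at ESC members (17.9% of all) and 22.6% at NCC members (18.3% of all). Members held 20.9% of the FGFR1 ends, 5.50% of the Hi-C ends and 11.4% of the CTCF ends in ESC, and 27.0%, 5.93% and 15.3% in NCC. Read pairs between 2 members were 5.98% of the FGFR1 pairs, 0.547% of the Hi-C pairs and 1.99% of the CTCF pairs in ESC, and 10.0%, 0.760% and 3.54% in NCC, in the same order as the shares of ends. In Hi-C, 1.02% of the pairs at ESC members had both ends in one bin, against 3.50% of all pairs, and 58.5% came from interactions with a score of 1, against 49.6% of all. In NCC Hi-C, 1.02% had both ends in one bin against 3.47% of all, and 64.5% had a score of 1 against 50.6%. For Hi-C pairs with an end in a bin with 30 or more FGFR1 ends that was not a member, the share in one bin was 2.56% in ESC and 2.46% in NCC. Of these pairs, 44.8% and 47.4% had a score of 1. A pair between bins counts for a set by either end, and a pair in one bin by that bin alone. This counting by itself lowers the share in one bin for any part of the bins against all pairs. How much of the gaps it makes, for members or for the other bins, was not computed. In FGFR1 HiChIP of ESC, 72.0% of the pairs at members had a score of 1, against 73.6% of all. There, 4.49% of the pairs at members had both ends in one bin, against 4.27% of all. In FGFR1 HiChIP of NCC, it was 3.84% against 4.02%.

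Of all 20698 autosomal protein-coding genes, 10.0% had a start site in an ESC member, 11.2% in an NCC member and 18.2% in either. Start sites of alternative transcripts count too, so a member can lie away from the main promoter of a gene. Of 23 retinoid receptor and metabolism genes, 4 had a start site in an ESC member and 7 in an NCC member (8 in either, 34.8%). Aldh1a1, which makes retinoic acid from retinal, had 31 FGFR1, 41 Hi-C and 15 CTCF ends in ESC and 60, 32 and 25 in NCC. Its ratio was 5.84 (3.54 to 9.54) in ESC and 12.1 (7.76 to 19.2) in NCC, and 3.07 and 10.1 by overlap. CTCF HiChIP was as high over Hi-C there, 6.89 and 15.8. Rara, the receptor alpha, and Cyp26c1, which degrades retinoic acid, were NCC members with 115 and 97 FGFR1 ends and 0 Hi-C ends in NCC, and had 1.50 and 1.24 by overlap.

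For comparison with the 10.0% and 11.2% of all protein-coding genes, 2 of 31 pluripotency genes (6.45%) were at ESC members and 3 (9.68%) at NCC members. These were Klf5 and Utf1 in ESC and Dppa2, Gdf3 and Zfp42 in NCC. Utf1, a chromatin factor of undifferentiated cells, had 73 FGFR1, 117 Hi-C and 5 CTCF ends in ESC and 20, 340 and 45 in NCC. Its FGFR1 ratio was 4.82 (3.55 to 6.51) in ESC and 0.380 (0.229 to 0.596) in NCC, and 1.55 and 0.358 by overlap. Zfp42 (Rex1), a marker of undifferentiated cells, had 20, 62 and 5 ends in ESC and 43, 44 and 9 in NCC, with ratios of 2.49 (1.42 to 4.18) and 6.31 (4.05 to 9.83). Of 41 neural induction genes, 5 were at ESC members and 6 at NCC members. Nr2f2 (COUP-TFII), an orphan nuclear receptor, had 86, 141 and 17 ends in ESC and 108, 174 and 31 in NCC, and ratios of 4.71 (3.56 to 6.20) and 4.01 (3.12 to 5.12), which were 2.45 and 2.28 by overlap. Map2, a microtubule protein of neurons, had start sites in 2 ESC members. One of them held 36, 24 and 0 ends in ESC and 26, 25 and 0 in NCC, where it missed the minimum of 30 FGFR1 ends, and its ratios by overlap were 14.1 and 8.10. The member bins of Nr2f2 and Map2, and those of Ncor1, Pcgf5 and Wapl, hold start sites of the GENCODE annotation but not the promoter that RefSeq gives.

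Hox genes were at members for 7 of 39 in ESC and 6 in NCC, 10 in either (25.6%). Hoxb3 had 169 FGFR1, 310 Hi-C and 29 CTCF ends in NCC and 126, 1144 and 23 in ESC, a ratio of 3.52 (2.90 to 4.26) in NCC that was 1.06 by overlap. Of the 42 Wnt genes, 4 were at ESC and 5 at NCC members. Of 27 Polycomb genes, Kdm2b, Mtf2 and Pcgf5 were at ESC members and Eed, Ezh2 and Rnf2, which encode core subunits, at NCC members. Of 27 FGF genes, Fgf20 (a ligand) and Frs2 (the adaptor of the receptors) were at ESC members and Etv5 (a transcription factor downstream) at an NCC member. Of 12 CTCF and cohesin genes, Pds5b, Stag1 and Wapl were at ESC members and Wapl at an NCC member. None (0) of 4 Nr4a genes was at a member. Ribosomal protein genes gave 5 and 10 of 79, histone genes 2 and 11 of 80, and small nuclear RNA genes 118 and 146 of 1292 (9.13% and 11.3%). Of the members at start sites of the listed protein-coding genes, 13 of 38 in ESC and 11 of 48 in NCC stayed at 2 or more by overlap.

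RefSeq gave 31396 autosomal promoters of 25748 genes, and those in members held the GC box less often than those in the other bins with 30 or more FGFR1 ends. The GC box was found on either strand in 36.4% of 2460 promoters in ESC members (34.5 to 38.3%) and 32.8% of 2783 in NCC members (31.1 to 34.6%), against 36.0% of all promoters and 50.5% and 49.4% in the bins with 30 or more FGFR1 ends that were not members. The median GC content of these promoters was 53.0% in ESC members, 50.3% in NCC members and 53.0% in all. In the bins with 30 or more FGFR1 ends that were not members, it was 58.0% and 57.7%. The part of GC content in the GC box shares was not tested. The E-box CACGTG, searched on both strands like the others, occurred in 7.07% of the promoters in ESC members, 7.37% in NCC members and 7.14% of all. The NRF1 motif occurred in 5.33%, 4.42% and 4.68% of these. A match is a description of the letters and not a binding site. Over chromosomes, members made up 12.1% (chromosome 7) to 22.3% (chromosome 16) of the bins with at least 50% known bases.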

How the data were processed

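Hi-C, FGFR1 HiChIP and CTCF HiChIP were done in 12 samples of ESC and NCC. Per the methods, the authors mapped reads to mm10 with HiC-Pro at default settings, merged the 2 biological replicates and called interactions with hichipper, and the deposited files give per pair of anchors a score, which is a count of read pairs. Anchors were called in each library separately. From these counts, ends on the 19 autosomes were summed in 10 kb bins without read pairs inside a single anchor (17.43% to 28.38% of the read pairs), which left 1673723 to 33944651 ends per library. Ratios are of shares of ends, with exact (Clopper-Pearson) 95% intervals, and shares of bins have Wilson intervals. Both ends of a read pair can fall in one bin, so the intervals are too narrow. Start sites are those of the GENCODE annotation and promoters those of RefSeq (GRCm38.p6). CpG islands were called at 200 bp, 50% GC and an observed over expected CpG of 0.6. Python 3.11.15, pandas 2.3.3 and scipy 1.17.1 were used. The member rule was run on simulated ends, without the placement of anchors. That run was scored only in bins where Hi-C gave 30 or more expected FGFR1 ends. Most members held fewer Hi-C ends than such bins, so it does not cover them. With 1 pooled library per group, no test between groups was made. The bins, gene lists and rules were chosen with earlier results of these data known. Genes named were the 10 members per cell type with the highest lower bound, the 5 with the most FGFR1 ends, the 5 most particular to that cell type by their intervals, the 5 with the highest FGFR1 over CTCF, the 3 bins on each side of the fold of 2, and members at start sites of listed genes. The 10 members of both cell types were added after the data were seen. The sequence of 1 further anchor is not reported here.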

Additional observations from a re-analysis of the deposited data

How the results depend on the processing

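No paired analysis was possible because the authors merged the 2 replicates of each group into 1 library. With 60 or more FGFR1 ends, 3282 ESC and 5338 NCC bins were members, 4.83% were shared, 15.9% held a protein-coding start site and 26.1% a CpG island, and CTCF HiChIP was 2 times Hi-C or more in 41.8% (ESC) and 47.3% (NCC). With interactions of a score of 2 or more, these values were 2398, 2491, 5.73%, 24.7%, 39.0%, 39.2% and 40.0%. Of the members, 7.33% (ESC) and 4.80% (NCC) were kept there. In both settings the shares of start sites and islands lay above those of all autosomal bins (10.4% and 17.2%), and they lay below them otherwise. The shares in bins with as many ends that were not members were not computed for these settings. With a fold of 3, ESC members were 11356, and the shares were 7.83% shared, 7.31% with a start site, 11.6% with an island, and 54.4% and 57.1% for CTCF. With 30 or more Hi-C ends, NCC members were 20029, and the shares were 9.47%, 9.10%, 14.9%, 37.3% and 43.7%. With read pairs 20 kb or more apart or between chromosomes, ESC members were 11970, and 7.93% were shared, 9.56% held a start site and 16.4% an island. With anchors divided over the bins they overlap, 9.64% were shared, 6.91% held a start site, 10.1% an island and 38.3% of ESC members reached the fold for CTCF. With read pairs inside single anchors counted, these were 13.8%, 8.28%, 13.3% and 45.4%. Over the bin with both neighbours, an alternative chosen after seeing the data, 7934 ESC and 17810 NCC bins were members, 7.78% were shared, 5.43% held a start site, 5.97% an island, and 46.1% and 52.6% reached the fold for CTCF. Islands of 500 bp or longer, also chosen after seeing the data, lay in 4.99% of members. Bins shifted by 5 kb moved none of the 7 results beyond counting error or, for the counts, 1.5 times. The causes were not tested. Depth limits the CTCF values most, as 30 ends are 17.3 (ESC) and 17.9 (NCC) EPM there.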
